A study of Mus musculus with 11 samples.

Results

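The 10 genes described here are Calca, Calcb, Grp, Gal, Npy, Cck, Tac1, Nts, Adcyap1 and Resp18, taken by symbol from the 23284 genes counted in mouse small cell lung tumors. Of them, 9 encode precursors of neuropeptides and Resp18 encodes a protein of the regulated secretory route. All 10 were listed in every tumor, and 5 passed the filter on low counts. The tumors came from mice whose genotype was labelled Rb;p53,TRE-MYCN, LSL-RTTA, that is, Rb and p53 alleles, MYCN behind a doxycycline-responsive promoter, and a doxycycline transactivator that needs Cre. In 7 tumors, the MYCN ON group, doxycycline was maintained. In the other 4, the MYCN OFF group, it had been withdrawn for 7 days. The labels do not name the source of Cre, the mouse strain or age, or whether each tumor is from its own mouse. All p-values therefore reflect only tumor-to-tumor spread, which may be partly technical. Doxycycline and the transgene were switched together, and their effects cannot be told apart.

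Neuropeptides are cut from larger precursors inside dense-core granules and released by neurons and neuroendocrine cells, where they act on G protein-coupled receptors of nearby cells. Pulmonary neuroendocrine cells, the best-known cells of origin of small cell lung cancer, store calcitonin gene-related peptide (CGRP) in the mouse and gastrin-releasing peptide in humans, and gastrin-releasing peptide is a known growth factor for human small cell lung cancer lines. Because a peptide gene often differs between otherwise similar neuroendocrine tumors, such genes serve as markers of the state of the cells.

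Gene-assigned reads numbered 10324089 to 13123838 in MYCN ON tumors and 8951733 to 12190957 in MYCN OFF tumors. Levels are in CPM, the read count of a gene scaled to a common library size with TMM factors, and 3 reads correspond to 0.234 to 0.348 CPM in MYCN ON and 0.202 to 0.297 CPM in MYCN OFF. Mycn was at 36.5 to 171 CPM in MYCN ON and 5.62 to 15.6 CPM in MYCN OFF. The neuroendocrine label was checked with 20 lineage and vesicle genes, all of them above the filter. Insm1, a transcription factor of neuroendocrine differentiation, was at 258 to 648 CPM in MYCN ON and 143.5 to 311 CPM in MYCN OFF, and the 20 genes summed to 3586 to 6058 and 2270 to 5509 CPM. Alveolar and club cell markers separated the tumors otherwise. Sftpc, the surfactant gene of alveolar type II cells, was above 100 CPM in MYCN ON tumors 3 and 5 and in MYCN OFF tumors 1, 3 and 4, called lung-containing below. In bulk RNA, fewer cells that make a peptide and less RNA per cell cannot be told apart.

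Start-site windows were taken for 8 of the 10 genes from RefSeq on GRCm38.p6, each with 250 bases before and 50 bases after an annotated start, and 4 are shown because they belong to the most abundant genes (Calca, Resp18) or hold the letters CACGTG that MYC family dimers bind (Cck, Tac1). Capitals mark the matches to CACGTG, to CAGCTG (another E-box) and to TGACG (the core of a cAMP response element), read on both strands. The windows are Calca at chr7:114636308-114636607 (minus strand), Resp18 at chr1:75278366-75278665 (minus strand), Cck at chr9:121495645-121495944 (minus strand) and Tac1 at chr6:7554811-7555110 (plus strand).
Calca: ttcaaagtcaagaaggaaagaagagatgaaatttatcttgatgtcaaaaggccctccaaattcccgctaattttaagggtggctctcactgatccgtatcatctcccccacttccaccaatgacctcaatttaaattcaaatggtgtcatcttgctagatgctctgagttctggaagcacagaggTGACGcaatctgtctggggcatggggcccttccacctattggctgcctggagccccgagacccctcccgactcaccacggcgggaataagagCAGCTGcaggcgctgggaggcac
Resp18: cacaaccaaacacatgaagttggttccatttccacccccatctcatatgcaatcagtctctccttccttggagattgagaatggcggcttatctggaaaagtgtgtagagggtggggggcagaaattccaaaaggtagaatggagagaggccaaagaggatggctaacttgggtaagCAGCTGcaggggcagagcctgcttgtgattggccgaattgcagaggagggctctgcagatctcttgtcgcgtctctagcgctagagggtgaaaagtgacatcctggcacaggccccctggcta
Cck: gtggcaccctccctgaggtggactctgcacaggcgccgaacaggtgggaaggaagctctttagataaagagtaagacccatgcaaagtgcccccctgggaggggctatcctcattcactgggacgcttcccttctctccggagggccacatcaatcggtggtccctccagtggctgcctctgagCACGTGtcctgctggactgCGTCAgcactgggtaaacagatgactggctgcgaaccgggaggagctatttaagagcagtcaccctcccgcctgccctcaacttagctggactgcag
Tac1: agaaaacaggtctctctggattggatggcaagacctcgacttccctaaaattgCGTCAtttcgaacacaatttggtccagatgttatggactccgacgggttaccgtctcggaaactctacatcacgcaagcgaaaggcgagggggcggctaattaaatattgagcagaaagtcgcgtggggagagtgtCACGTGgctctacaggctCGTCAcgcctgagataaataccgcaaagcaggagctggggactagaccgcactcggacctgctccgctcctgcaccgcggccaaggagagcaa

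The letters CACGTG stood 66 bases before the start of Cck and 61 before that of Tac1, and in no window of the other 6 genes. They occur in 7.15% of 32851 such windows of mouse genes. CAGCTG, found in 16.3% of all windows, occurred in the windows of Calca (28 bases after the start), Resp18 (73 before it) and Nts. TGACG, found in 20.8%, occurred in those of Calca (65 before the start), Gal, Cck, Tac1, Nts and Adcyap1, and the full palindrome TGACGTCA, at 1.79% of windows, in none of the 8. The motifs do not overlap each other, apart from TGACG being part of the full palindrome. These matches describe letters only, in windows of a build other than the mm9 of the counts. Calcb and Grp have no window shown.

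Calca, which by alternative splicing encodes calcitonin and alpha-CGRP, was the most abundant of the genes and spanned a 337-fold range over the 11 tumors. Its level was 9.43 CPM at the lowest, 29.2 CPM at the median and 876 CPM at the highest in MYCN ON, against 66.3, 748, 384 and 3177 CPM in MYCN OFF tumors 1, 2, 3 and 4. MYCN ON tumors 1, 2, 4 and 5 lay below every MYCN OFF tumor, at 20.1, 9.64, 29.2 and 9.43 CPM, while MYCN ON tumor 7, at 876 CPM, was above 3 of the 4 MYCN OFF tumors. The groups thus overlapped. The mean was 170.0 ± 316 CPM in MYCN ON and 1094 ± 1417 CPM in MYCN OFF (SD, n = 7 and 4), and the log2 fold change of -2.69 (SE 1.26, 95% interval -5.43 to 0.056) was not called (edgeR adjusted p = 0.123). Without MYCN ON tumor 7 the log2 fold change was -4.39 and passed (edgeR adjusted p = 0.015). Without MYCN OFF tumor 4 it was -1.23 (adjusted p = 0.53). Counts by symbol do not separate the calcitonin from the CGRP transcript.

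Calcb, which encodes beta-CGRP and lies next to Calca on chromosome 7, followed Calca at a far lower level. It held 0 to 35 reads in a MYCN ON tumor, with a median of 0.696 CPM and a highest value of 2.92 CPM, again in tumor 7. In MYCN OFF tumors 1 to 4 it was at 0.959, 3.07, 3.44 and 14.4 CPM, from 12, 31, 51 and 154 reads. All 7 MYCN ON tumors were below the MYCN OFF median and 5 were below the lowest MYCN OFF tumor. The means were 0.866 ± 0.984 CPM in MYCN ON and 5.47 ± 6.07 CPM in MYCN OFF. With a log2 fold change of -2.64 (SE 0.96, 95% interval -4.74 to -0.54) it had the smallest p of the 5 genes tested but missed the threshold after adjustment (edgeR adjusted p = 0.0571). It passed with library totals as the only scaling (adjusted p = 0.0397), with upper quartile factors (0.0427), by DESeq2 (0.0215) and without MYCN ON tumor 7 (0.0255). Without MYCN OFF tumor 4 its log2 fold change was -1.51 (adjusted p = 0.294).

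Across the tumors Calca and Calcb rose and fell together. Pearson's r of their log2 CPM was 0.958 over 11 tumors and Spearman's rho was 0.945, with permutation p = 2e-05 and 8e-05, and 0.0002 and 0.0008 after adjustment over the 10 pairs of tested genes. Without the 2 tumors farthest from the Calca median r was 0.935, within the 7 MYCN ON tumors 0.921 and within the 6 lung-poor tumors 0.952. Calcb made 34.7 reads per 1000 Calca reads in MYCN ON tumor 1 (exact 95% interval 12.6 to 77.0, for counting error only) and 3.34 in MYCN ON tumor 7 (2.32 to 4.65), against 14.5 in MYCN OFF tumor 1 (7.45 to 25.4) and 4.54 in MYCN OFF tumor 4 (3.85 to 5.32). The other tumors lay between 0 and 18.1 in MYCN ON and at 4.10 and 8.97 in MYCN OFF, so the ratios of the groups overlapped. The genes are paralogs, and how reads common to both were counted is not given in the sources used here.

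**Figure D1:**
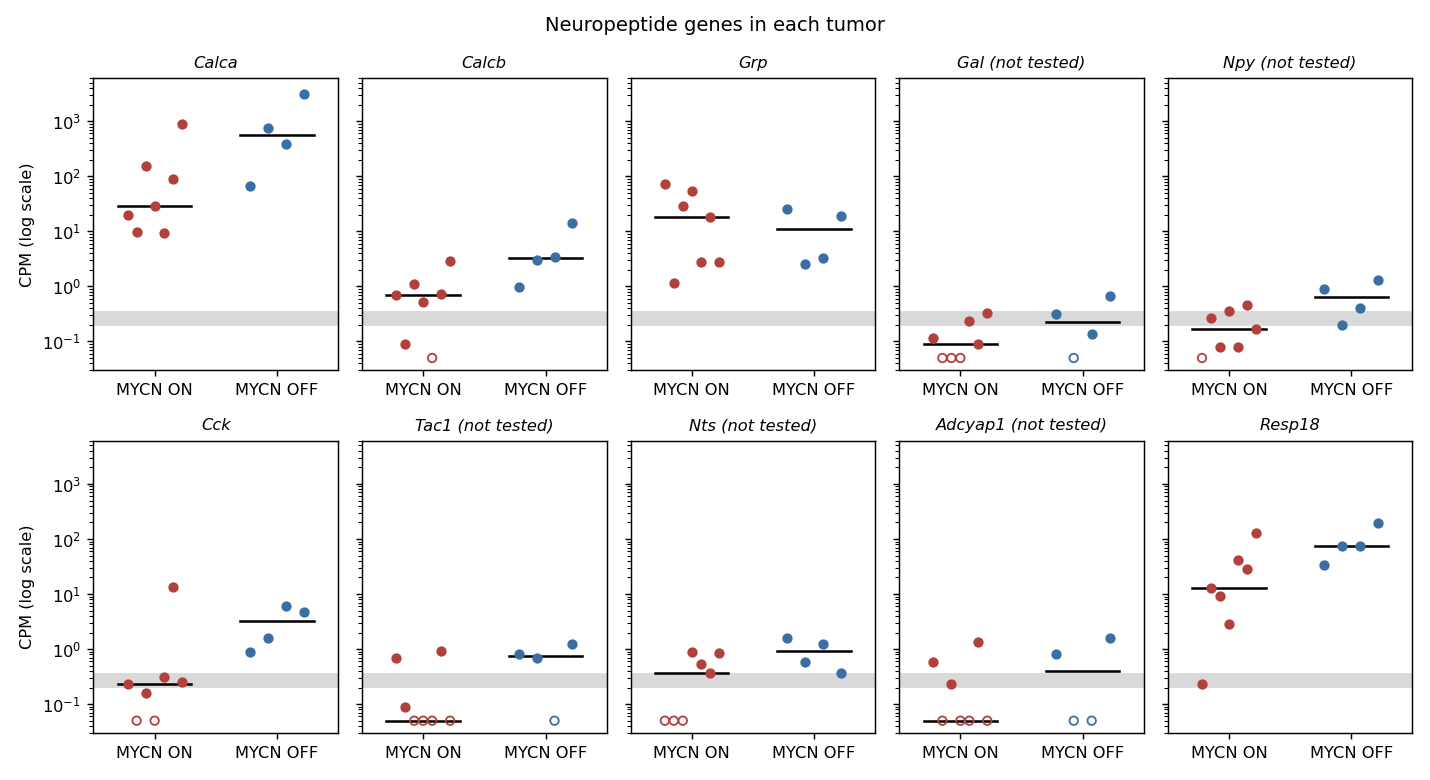
CPM of each neuropeptide gene on a log scale, with 1 point per tumor, 7 MYCN ON tumors in red and 4 MYCN OFF tumors in blue. Horizontal lines are medians, open circles are tumors with 0 reads drawn at the bottom, and the grey band is the level of 3 reads. Calca reaches 876 CPM in a MYCN ON tumor and 3177 CPM in a MYCN OFF tumor, and the points of the groups overlap in all 10 panels.

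Grp, the precursor of gastrin-releasing peptide, was the one tested gene with a higher mean in MYCN ON, and it split the tumors of both groups alike. It was at 1.15 CPM at the lowest, 18.6 CPM at the median and 71.1 CPM at the highest in MYCN ON, against 25.5, 2.57, 3.24 and 18.6 CPM in MYCN OFF tumors 1 to 4. MYCN ON tumors 1, 3, 4 and 6 and MYCN OFF tumors 1 and 4 had 199 to 614 reads, and the remaining 5 tumors had 13 to 48. The means were 25.7 ± 27.7 CPM in MYCN ON and 12.5 ± 11.4 CPM in MYCN OFF. The log2 fold change was 1.04 (SE 1.08, 95% interval -1.31 to 3.39) and was not called (edgeR adjusted p = 0.49). It was 0.40 without MYCN ON tumor 1. RefSeq places a second gene model, Gm30094, over Grp, so reads of the pair cannot be told apart if strand was not used.

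Grp was low where general neuroendocrine genes were high. Against the mean log2 CPM of the 20 neuroendocrine genes, which hold no peptide gene, its r was -0.89 and its rho -0.918 over 11 tumors (permutation p = 0.00039 and 0.00025, and 0.0129 and 0.00688 after adjustment over 55 relations of the tested genes with 11 list scores). It was -0.874 without the 2 tumors farthest from the median score, -0.95 within the 7 MYCN ON tumors and -0.924 within the 6 lung-poor tumors. Grp had no such relation with Calca (r = -0.078, adjusted permutation p = 0.906). With the neuroendocrine score as a covariate the log2 fold change of Grp turned to -0.48 (edgeR adjusted p = 0.567).

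Resp18, a protein of the endoplasmic reticulum and granules of neuroendocrine cells and no peptide precursor, varied over a 550-fold range among MYCN ON tumors and a 5.85-fold range among MYCN OFF tumors. Its level was 0.232 CPM at the lowest, 12.6 CPM at the median and 128 CPM at the highest in MYCN ON, against 33.2, 75.3, 75.9 and 194 CPM in MYCN OFF tumors 1 to 4. The lowest value, in MYCN ON tumor 1, rested on 2 reads, and 5 of the 7 MYCN ON tumors were below every MYCN OFF tumor. MYCN ON tumors 5 and 7 overlapped with the MYCN OFF group. The means were 31.9 ± 44.8 CPM in MYCN ON and 94.6 ± 69.2 CPM in MYCN OFF, and the log2 fold change of -1.57 (SE 1.01, 95% interval -3.78 to 0.64) was not called (edgeR adjusted p = 0.261). Without MYCN ON tumor 7 it was -2.57 (adjusted p = 0.0575), and without MYCN OFF tumor 4 it was -0.94 (adjusted p = 0.584).

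The level of Resp18 went with granule genes and, by Pearson's r, with receptor genes. Its r with the score of 15 tested processing and granule genes was 0.872 and its rho 0.936 (adjusted permutation p = 0.0129 and 0.00605 over the 55 relations), and r was 0.879 without the 2 tumors farthest from the median score and 0.812 within the 7 MYCN ON tumors. The single gene most like Resp18 was Ptprn, the granule membrane protein IA-2. Ptprn is itself 1 of the 15 genes in that score, so it is not separate evidence. It is also a coding neighbour of Resp18 on chromosome 1 and does not overlap it in RefSeq. Ptprn was at 2.09 to 196 CPM in MYCN ON and 46.5 to 366 CPM in MYCN OFF. With the score of 16 tested receptor genes, Resp18 had r = 0.83 and rho = 0.718 (adjusted permutation p = 0.0158 and 0.11). That r was 0.662 without the 2 tumors farthest from the median score and 0.881 within the 7 MYCN ON tumors. With the score of peripheral sensory neuron markers, r was 0.752 (adjusted permutation p = 0.0745).

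**Figure D2:**
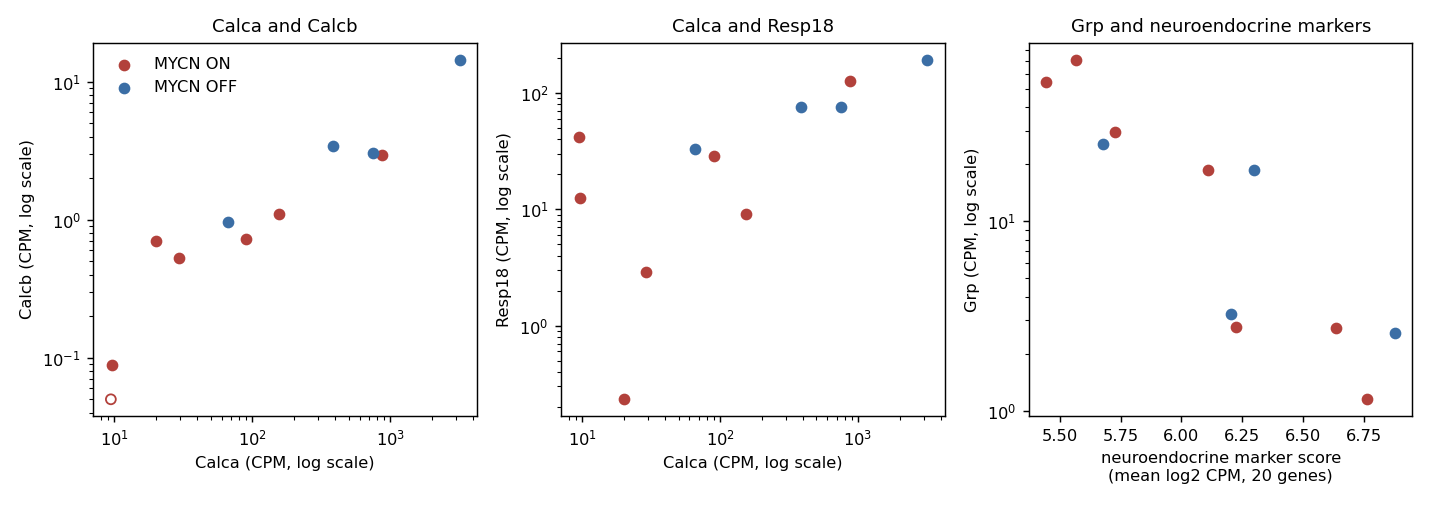
Each point is 1 of 11 tumors, MYCN ON in red and MYCN OFF in blue, with CPM on log axes and, in the right panel, the mean log2 CPM of 20 neuroendocrine genes on the horizontal axis. The open circle marks a tumor with 0 Calcb reads. Calcb follows Calca (r = 0.958), Resp18 follows it less closely (r = 0.67), and Grp falls as the neuroendocrine score rises (r = -0.89).

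Cck, the precursor of cholecystokinin, was near the detection limit in 6 MYCN ON tumors and present in the seventh and in every MYCN OFF tumor. In MYCN ON it held 0 to 4 reads in 6 tumors, 148 reads (13.4 CPM) in tumor 6 and a median of 0.232 CPM. In MYCN OFF tumors 1 to 4 it held 11, 16, 91 and 51 reads, or 0.879, 1.58, 6.14 and 4.78 CPM. MYCN ON tumor 6 was the highest of all 11 tumors, while the other MYCN ON tumors were below every MYCN OFF tumor. The means were 2.05 ± 5.0 CPM in MYCN ON and 3.35 ± 2.52 CPM in MYCN OFF. The log2 fold change was -0.71 (SE 1.44, 95% interval -3.85 to 2.43, edgeR adjusted p = 0.738), and without MYCN ON tumor 6 it was -4.31 and passed (adjusted p = 0.0062). The gene model Gm38661 overlaps Cck in RefSeq.

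The 5 genes under the filter gave at most 20 reads in any tumor. Npy, the precursor of neuropeptide Y, held 0 to 5 reads in a MYCN ON tumor and 11, 2, 6 and 14 reads in MYCN OFF tumors 1 to 4. Nts, the precursor of neurotensin and neuromedin N, held 0 to 10 reads in MYCN ON and 20, 6, 18 and 4 reads in MYCN OFF. Tac1, which encodes substance P and neurokinin A, had 0 reads in 4 MYCN ON tumors and at most 10 in the rest, against 10, 7, 0 and 13 reads in MYCN OFF.

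Adcyap1, the precursor of the peptide PACAP, had 0 reads in 4 MYCN ON tumors and at most 15 in the others, and 10, 0, 0 and 17 reads in MYCN OFF. The galanin gene Gal held 0 to 4 reads in MYCN ON and 4, 0, 2 and 7 reads in MYCN OFF. When every gene with a read was tested, edgeR adjusted p-values of these 5 ranged from 0.0931 (Npy) to 0.614 (Adcyap1). None was called. Npy had an unadjusted p of 0.0294 in the same edgeR fit.

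Read against the whole table, the tested neuropeptide genes held no call. EdgeR called 0 of the 5, and 1 (Calcb) had an unadjusted p below 0.05, while 29.4% of the 15237 genes tested were called. Of the same 5 genes, DESeq2 called 1, limma voom 0 and limma voom with sample quality weights 4. Their median log2 fold change was -1.57, beside 0.0023 for all genes tested, and the groups did not overlap in 0 of the 5, beside 16.8% of all genes (5.41% with MYCN ON below). The intervals of Calca, Grp, Cck and Resp18 include 0 and also differences of at least 3.39 on the log2 scale in 1 direction, so the missing calls do not show equal levels.

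**Figure D3:**
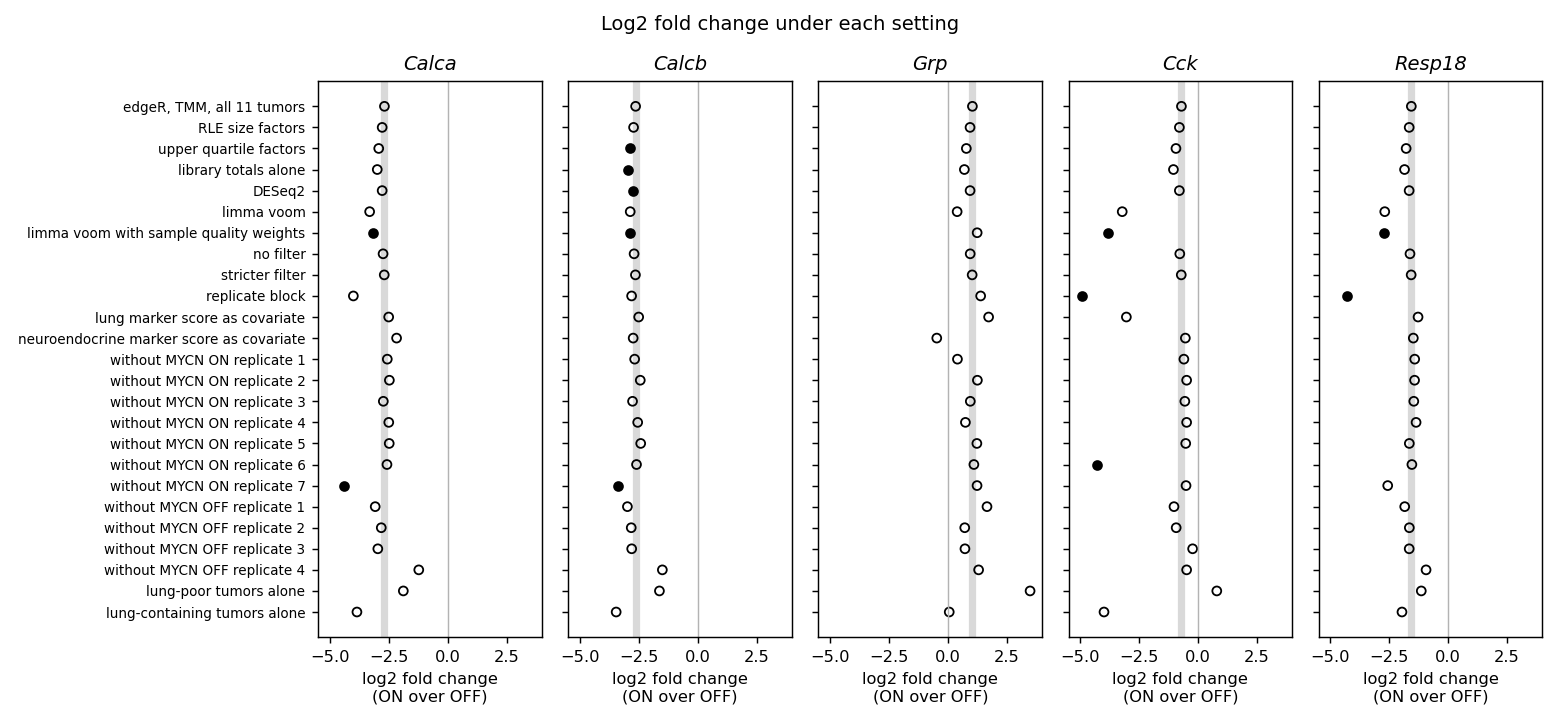
Log2 fold change (MYCN ON over MYCN OFF) of the 5 tested neuropeptide genes under 25 settings, from the fit of all 11 tumors at the top (grey line) to subsets of tumors at the bottom. Filled points have an adjusted p below 0.05. Calca, Calcb and Resp18 stay below 0 in all 25 settings, Grp is below 0 in 1 setting and Cck above 0 in 1.

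Scaled by exon length from GENCODE M21, the genes can be set beside each other within a tumor, in CPM per kilobase. By median, the order in MYCN ON was Calca (17.4), Grp (12.6), Resp18 (12.2), Calcb (0.551), Npy (0.295), Nts (0.29), Cck (0.178) and Gal (0.115), with Adcyap1 and Tac1 at 0. In MYCN OFF it was Calca (336), Resp18 (73.3), Grp (7.41), Calcb (2.57), Cck (2.44), Npy (1.13), Nts (0.724), Gal (0.288), Tac1 (0.219) and Adcyap1 (0.106). The means of the leading 3 were 101 ± 188, 30.9 ± 43.4 and 17.4 ± 18.7 for Calca, Resp18 and Grp in MYCN ON, and 649 ± 841, 91.7 ± 67.1 and 8.45 ± 7.73 in MYCN OFF. The means of neighbours in these orders differed by less than the larger of their SDs, except those of Resp18 and Grp in MYCN OFF.

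The gene in the lead differed between MYCN ON tumors. Calca led in MYCN ON tumors 3, 6 and 7 with 75.5%, 50.3% and 80.1% of the summed length-scaled level, Grp in tumors 1 and 4 with 78.3% and 62.5%, and Resp18 in tumors 2 and 5 with 63.4% and 82.6%. In MYCN OFF tumors 1 to 4 Calca led in each, with 41.9%, 84.8%, 72.8% and 89.6%. The sum itself was 19.3 to 122 CPM per kilobase in MYCN ON tumors 1 to 6 and 649.6 in MYCN ON tumor 7, against 93.9, 523, 313 and 2107 in MYCN OFF tumors 1 to 4. No p is given for the sum, since the genes were chosen with results known.

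**Figure D4:**
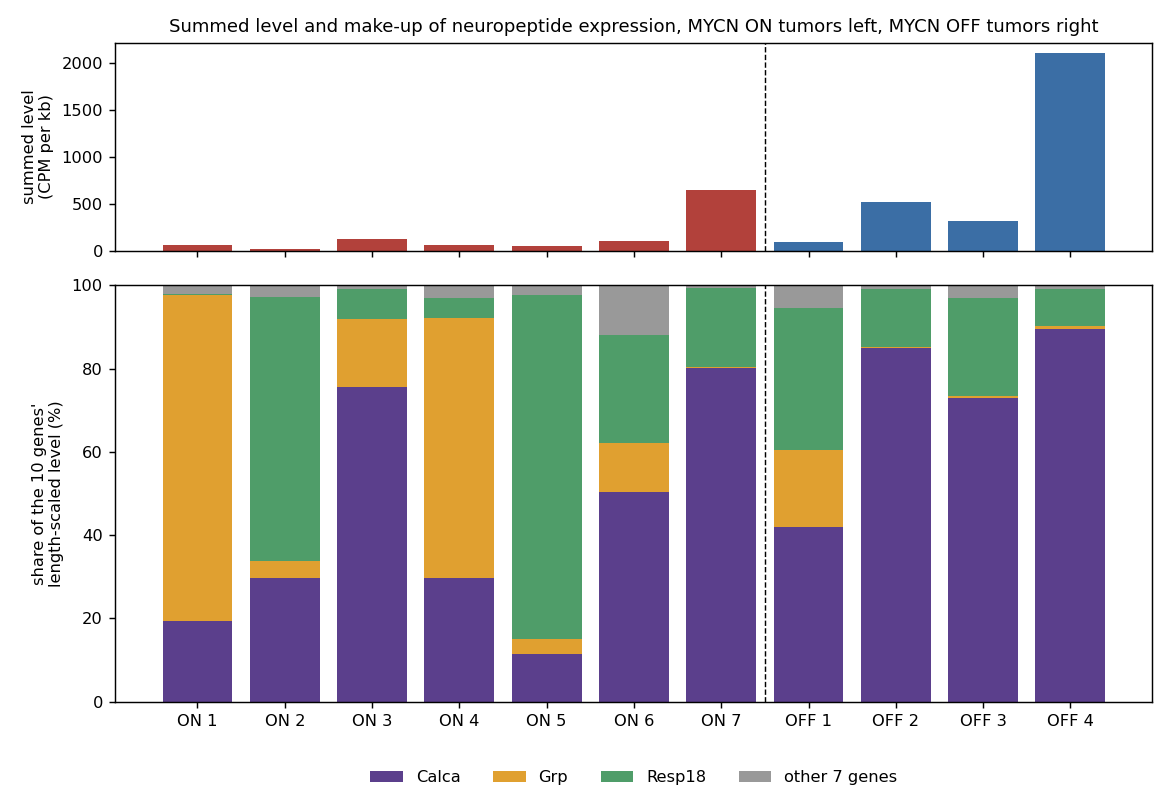
Upper bars give the summed level of the 10 neuropeptide genes in CPM per kilobase of exon in each tumor, MYCN ON tumors in red left of the dashed line and MYCN OFF tumors in blue. Lower bars give the shares of Calca, Grp and Resp18 in that sum in percent, with the remaining genes pooled. Calca holds 11.4% to 80.1% in MYCN ON tumors and 41.9% to 89.6% in MYCN OFF tumors.

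Some other genes had patterns like those of the peptide genes over the 11 tumors, ranked by Pearson's r of log2 CPM among 14884 candidates, as a description with no test. For Calca these were Calcb, then Gpr37l1 (r = 0.927), an orphan receptor, and Pirt (0.915), a regulator of TRP channels in mouse sensory neurons. For Calcb they were Kcnh2 (0.973), a potassium channel, Calca and the guanylate kinase Guk1 (0.941). Grp was followed by Ccbl2 (0.944), 1300010F03Rik (0.941) and Fhdc1 (0.937). Cck was followed by the glucose transporter Slc2a4 (0.882), Tuba8 (0.877) and Gdpd5 (0.865). For Resp18 they were Ptprn (0.982), Cish (0.957) and Lactb (0.954). The tumors share library depth and scaling in all of these values.

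Of the receptors for these peptides, 28 genes were listed and 16 tested, of which 1 was higher in MYCN ON, 6 were lower and 9 were not called. The background was 16.0% of all genes called higher and 13.4% called lower, and the median log2 fold change of the 16 was -1.36. Galr2, a galanin receptor, was at 0.116 CPM at the lowest, 0.702 CPM at the median and 1.42 CPM at the highest in MYCN ON, against 1.04, 37.3, 17.8 and 8.90 CPM in MYCN OFF tumors 1 to 4. It fell by 4.27 on the log2 scale (SE 0.77, edgeR adjusted p = 0.00268), with MYCN OFF tumor 1 inside the MYCN ON range. Sort1, the sorting receptor sortilin that binds neurotensin, was lower in every MYCN ON tumor, at 112 to 158 CPM against 291, 205, 216 and 239 CPM (log2 fold change -0.75, SE 0.15, adjusted p = 0.00473). Npy1r, the Y1 receptor of neuropeptide Y, was at 16.0 to 43.7 CPM in MYCN ON and 33.3 to 110 CPM in MYCN OFF (log2 fold change -1.33, adjusted p = 0.0152), a call lost without MYCN OFF tumor 3.

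Vipr1, a receptor for the peptides VIP and PACAP, was at 2.09 to 12.5 CPM in MYCN ON and 6.63 to 73.2 CPM in MYCN OFF (log2 fold change -2.24, edgeR adjusted p = 0.0215), and lost its call without MYCN OFF tumor 2. Cckar, a cholecystokinin receptor, was at 0.0836 to 5.69 CPM in MYCN ON and 73.2, 0.297, 4.86 and 20.8 CPM in MYCN OFF tumors 1 to 4 (log2 fold change -4.06, adjusted p = 0.0224), and lost its call without MYCN OFF tumor 1. Calcrl, which pairs with RAMP proteins to form the CGRP receptor, was lower in MYCN ON by 2.65 on the log2 scale (edgeR adjusted p = 0.0445). It was at 280.1 CPM in MYCN OFF tumor 1 and 3.46 CPM in MYCN OFF tumor 2. The call of Calcrl was lost without any 1 tumor apart from tumor 5 of MYCN ON and tumor 2 of MYCN OFF. With the lung score in the model its log2 fold change was 0.32 (adjusted p = 0.832). Ntsr2, a neurotensin receptor, was the receptor gene that rose, to 28.2 CPM at the median of MYCN ON against 9.27, 9.70, 6.48 and 3.19 CPM in MYCN OFF (log2 fold change 2.40, SE 0.69, adjusted p = 0.024), and it lost its call without MYCN OFF tumor 1, 3 or 4. Grpr, the receptor of gastrin-releasing peptide, gave 3 reads in all MYCN ON tumors together and 0 in MYCN OFF. Without MYCN OFF tumor 3, 4 receptors were called, and with the lung score in the model 3 (Galr2, Sort1 and Vipr1).

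**Figure D5:**
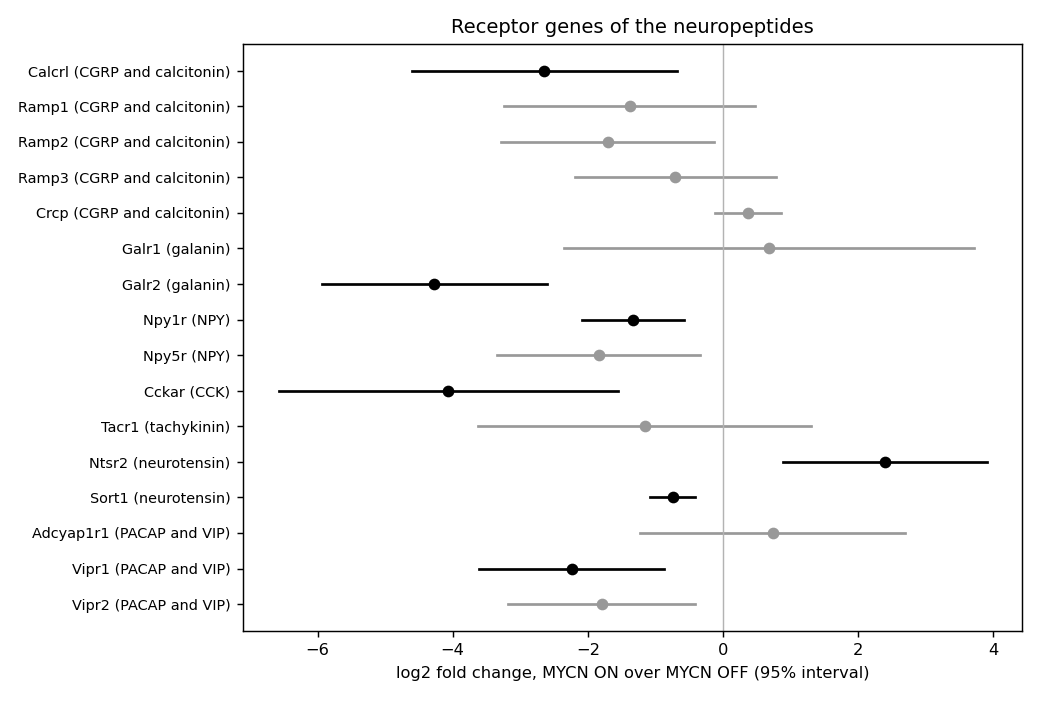
Log2 fold change (MYCN ON over MYCN OFF) with its 95% interval for the 16 tested receptor genes, grouped by ligand. Black marks the 7 genes with an edgeR adjusted p below 0.05 and grey the other 9. Ntsr2, at 2.40, is the black point right of 0.

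Among 47 other peptide precursor genes in the files, 10 were tested, 0 were higher in MYCN ON, 1 was lower and 9 were not called. Neither share exceeded the 16.0% called higher and 13.4% called lower among all genes. The lower gene was Pyy, the gut hormone peptide YY, with 3 reads in all MYCN ON tumors together, all from tumor 3, and 17, 14, 16 and 37 reads in MYCN OFF tumors 1 to 4 (edgeR adjusted p = 0.00205). Its rate was 0.0215 of that in MYCN OFF (exact Poisson 95% interval 0.00435 to 0.0651, for counting error only). Npff (log2 fold change -1.34, adjusted p = 0.0848), Cartpt (-1.91, adjusted p = 0.222), Pomc (-0.67, adjusted p = 0.302), Gnrh1 (0.66, adjusted p = 0.312) and Nmb (-0.51, adjusted p = 0.327) were next by p in the edgeR fit.

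Of 16 genes that process and store peptides, 15 were tested, 0 were higher, 2 were lower and 13 were not called. The share called lower was near the 13.4% of all genes, and 16.0% of all genes were called higher. Scg2, the granule protein secretogranin II, was at 22.7 to 90.8 CPM in MYCN ON and 142 to 680 CPM in MYCN OFF, with no overlap (log2 fold change -2.79, SE 0.45, edgeR adjusted p = 0.00172). Chgb, chromogranin B, was at 38.7 to 188 CPM in MYCN ON and 91.9 to 380 CPM in MYCN OFF (log2 fold change -1.23, adjusted p = 0.0419). Chgb lost its call without any 1 of MYCN ON tumors 1 to 5 or MYCN OFF tumors 2 to 4. Pcsk1, the prohormone convertase 1, had a log2 fold change of -2.16 (adjusted p = 0.0523), Ptprn2 of -0.88 (adjusted p = 0.122), Ptprn of -1.65 (adjusted p = 0.152) and Qpct of -1.19 (adjusted p = 0.173). Without MYCN ON tumor 7, 5 of these genes were called, all lower.

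Of the 20 neuroendocrine genes, 1 was higher, 1 lower and 18 not called, with a median log2 fold change of 0.028. These shares were below the 16.0% called higher and 13.4% called lower among all genes. Uchl1, the deubiquitinase PGP9.5, was higher in every MYCN ON tumor, at 600.5 to 794 CPM against 275 to 484 CPM (log2 fold change 0.81, edgeR adjusted p = 0.00698), a call lost with library totals as the only scaling. Slc18a1, the vesicular monoamine transporter VMAT1, was at 0.543 to 3.52 CPM in MYCN ON and 1.98 to 56.8 CPM in MYCN OFF (log2 fold change -3.52, adjusted p = 0.00689), a call lost with the lung score in the model. Eno2 (-1.22, adjusted p = 0.0846), Insm1 (0.66, adjusted p = 0.093) and Prox1 (0.69, adjusted p = 0.26) were not called.

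Markers of lung, leukocytes, endothelium and Schwann cells included genes called lower in MYCN ON, each list at a larger share than the 13.4% of all genes. The median log2 fold changes of their tested genes were -3.67, -2.08, -1.76 and -1.23, beside 0.0023 for all genes tested. For fibroblast and muscle genes the medians were -0.59 and -2.14. Of 12 alveolar and club cell genes, 3 were lower in MYCN ON (edgeR) and their summed level was 7.25 to 3429 CPM in MYCN ON and 43.0 to 33326 CPM in MYCN OFF, led by Scgb1a1, Sftpc and Sftpb. Of 10 tested leukocyte genes 6 were lower (summed over 12 genes, 140.4 to 663 and 225 to 5377 CPM) and of 7 endothelial genes 4 were lower (52.1 to 171 and 60.3 to 845 CPM). Fibroblast genes had 0 of 7 called (391 to 1692 and 421 to 2429 CPM) and muscle genes 0 of 7 (5.45 to 276 and 7.12 to 424 CPM). Schwann cell genes had 2 of 6 lower and 0 higher (190 to 344 and 182 to 368 CPM). Apart from fits with the lung score or split by lung markers, the part of these cells in the receptor and peptide results was not tested.

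Peripheral sensory neurons also make CGRP and substance P. Of their 10 markers, 6 were tested, 1 (Nefh) was higher and 2, Avil among them, were lower. Among all genes tested, 16.0% were called higher and 13.4% lower. The sum of the markers was 165 to 368 CPM in MYCN ON and 58.9 to 243 CPM in MYCN OFF. The nociceptor genes Scn10a, Trpv1 and Mrgprd gave 2, 1 and 0 reads in all MYCN ON tumors together and 4, 1 and 0 reads in MYCN OFF. Other markers of the list were well above the detection limit in some tumors. Scn11a reached 43.9 CPM in MYCN ON and 7.42 CPM in MYCN OFF, P2rx3 9.42 and 10.7 CPM, and Prph 48.5 and 177 CPM. Nefh averaged 182 CPM in MYCN ON and 31.5 CPM in MYCN OFF. The part of sensory neurons in the Calca, Calcb and Tac1 values was not tested.

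Calca varied widely among tumors with and without lung markers. In the 6 lung-poor tumors Calca was at 9.64 to 876 CPM in 5 MYCN ON tumors and 748 CPM in MYCN OFF tumor 2, and in the 5 lung-containing ones at 9.43 and 155 CPM in MYCN ON tumors 5 and 3 and 66.3 to 3177 CPM in 3 MYCN OFF tumors. The log2 fold change was -1.88 in the lung-poor tumors (edgeR adjusted p = 0.698, with a lone MYCN OFF tumor assumed to vary like the others) and -3.85 in the lung-containing ones (adjusted p = 0.247), and -2.50 when the lung score was added (adjusted p = 0.396). For Resp18 these values were -1.14, -1.96 and -1.28 (adjusted p = 0.833, 0.234 and 0.577).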

How the data were processed

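TRIzol-extracted RNA was poly(A)-selected for NEBNext Ultra libraries, per the labels' protocols. The submitters' processing notes list mm9, HTSeq 0.6.1, TopHat2 2.0.8b and bcl2fastq 1.8.4. The annotation and strand setting are not given in the sources used here. The authors deposited raw whole-number counts per gene symbol, 1 table per tumor. The 5 summary rows of each table were left out: 14.8% to 21.5% of records lay outside genes. Multiply aligned records made up 13.8% to 20.9% in MYCN ON and 9.15% to 11.9% in MYCN OFF, and TMM factors were 0.835 to 1.01 and 1.09 to 1.22. Neither overlapped between groups, and their part in the results was not tested. The smallest chi-square per gene between tumors of a group was 53.7, so no pair agreed within sampling noise.

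Counts were tested in R 4.3.3 with edgeR 4.0.16 (filterByExpr, minimum count 10 and total 15, TMM factors, robust quasi-likelihood test, no covariate) over 15237 genes, with calls at 0.05 after Benjamini-Hochberg adjustment. Each fold change has MYCN ON on top. Its standard error is the log2 fold change over the root of F. Log2 CPM used a prior count of 2, and list scores are means of it over tested members. Correlations used 100000 two-sided permutations. Alternatives used limma 3.58.1 and DESeq2 1.42.0, among others.

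The members and gene lists were chosen with earlier results of these data known. Besides the 10 members, the genes named are up to 6 per list with the smallest p, the 3 most abundant of a marker list where given, and the 3 genes most like each tested member. Grpr, Vip, P2rx3, Scn10a, Trpv1, Mrgprd, Calcrl and Avil were named after their values were seen. Some genes of these lists are counted but not reported here by name.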

Additional observations from a re-analysis of the deposited data

Results flagged for a closer look

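In 4 of 10 tests, 1 for each of the 5 tested genes in each group, a single MYCN ON tumor lay far from the other 6 in CPM. Chance alone flags about 1 in 20 such tests where values are normally distributed, which skewed CPM are not. MYCN ON tumor 7 stood out for Calca at 876 CPM, with the next tumor at 155 CPM. The same tumor stood out for Calcb at 2.92 CPM (next 1.10 CPM) and for Resp18 at 128 CPM (next 41.9 CPM). MYCN ON tumor 6 stood out for Cck at 13.4 CPM, with the next tumor at 0.312 CPM. On the log2 scale, looked at after these values were seen, the gap over the range passed Dixon's critical value for Cck alone of the 5 genes, at 0.763. It was 0.383 for Calca, 0.308 for Calcb and 0.193 for Resp18, so these 3 stand out only in CPM. Calca and Calcb vary together and do not count as independent.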

How the results depend on the processing

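The count of all genes called, 4475, was 1703 with the lung score as a covariate (1169 higher, 534 lower), 1703 at an adjusted p below 0.01 (1187 higher, 516 lower), 0 in the lung-poor tumors and 0 in the lung-containing tumors alone by edgeR (2289 and 3899 at an unadjusted p below 0.05), and 2862 to 5396 with 1 tumor left out. The higher genes were 54.5% of the calls under TMM and 48.0% under RLE scaling. Upper quartile scaling gave 37.0% and library totals 28.4%, with the median of all genes at -0.31 under library totals. Of the 0 neuropeptide genes called, library totals, upper quartile factors and DESeq2 each gave 1 (Calcb), quality weights 4 (Calca, Calcb, Cck, Resp18) and leaving out 1 tumor 0 to 2. With 1 tumor left out, other peptide genes gave 1 to 2 calls, receptors 4 to 8, processing genes 1 to 5 and neuroendocrine genes 2 to 3. DESeq2 called 2 other peptide genes, library totals 4 processing genes, and the lung covariate 3 receptors and 1 neuroendocrine gene.

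Direction turned, with no call, for Calcrl with the lung score (0.32) and in the lung-poor tumors (1.05), Grp with the neuroendocrine covariate (-0.48), and in the lung-poor tumors Cck (0.79), Cartpt (2.35), Cckar (0.94) and Prox1 (-0.18). The cause of these shifts was not tested.

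The replicate numbers were not taken as pairs, and 4 same-numbered tumors per group are too few to decide whether they pair. Same-numbered tumors had correlations of deviations of -0.162, 0.462, -0.0763 and 0.265, and 2 of 4 MYCN OFF tumors matched their own number best. With the replicate number as a block, 3024 genes, 2 neuropeptide genes (Cck, Resp18), 2 other peptide genes, 4 receptors, 5 processing genes and 4 neuroendocrine genes were called. The 5 neuropeptide genes under the filter had at most 20 reads in any tumor.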

Other observations

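Vip, the precursor of vasoactive intestinal peptide, was read almost entirely in a single tumor. It gave 2 reads in all 7 MYCN ON tumors together, and 43, 0, 1 and 2645 reads in MYCN OFF tumors 1 to 4, which is 248 CPM in tumor 4. The gene did not pass the filter on low counts, was named after its values were seen, and was called by edgeR when every gene with a read was tested. MYCN OFF tumor 4 was also the tumor with the highest Calca, Calcb, Gal, Npy, Tac1, Adcyap1 and Resp18 levels. For Gal, Npy, Tac1 and Adcyap1, all under the filter, this rested on 7, 14, 13 and 17 reads. The next highest counts in any tumor were 4, 11, 10 and 15 reads, so the lead of MYCN OFF tumor 4 in these genes rests on few reads.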
